A study of Bos indicus with 9 samples.

Results

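The 300 strongest stitched open domains of skeletal muscle are clusters of accessible chromatin in muscle of Brahman cattle. Among muscle domains on the autosomes beyond the first megabase, these 300 had the largest summed signal. They were chosen from the consensus muscle list of ATAC-seq, an assay of open chromatin in which the Tn5 transposase cuts and tags DNA that is not packed by nucleosomes. Peaks on chromosomes 1 to 29 that start at or above position 1000000 were sorted by coordinate, peaks separated by at most 12500 bp were joined into a domain, and the 300 domains with the largest sum of signal were kept of 15556 domains in all. Signal here means AUC, the area under the curve reported by the peak caller, that is the combined significance added up over the bases of the peak. The libraries came from hypothalamus, liver, and muscle of the same 3 unrelated post-pubertal heifers (2047, 2054, and 2057), with no treatment, so each tissue had 3 libraries of the 9. The authors combined the 3 heifers of a tissue into 1 list before deposit, so the lists hold no peak value of 1 heifer and no tissue was tested against another. Each tissue was ground whole, so the lists mix all the cell types it holds, and fewer cells of a type cannot be told apart from less open chromatin per cell. AUC was not scaled between lists, and intervals on shares are Wilson 95% intervals, which cover counting error only.

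Open chromatin marks promoters and enhancers, the elements where transcription factors bind. Genes that define a cell type are often surrounded by several such elements within a short stretch of DNA, and stitching neighboring peaks is a common way to find these clusters. In skeletal muscle the best known targets of such clusters are genes of the contractile apparatus and their regulators, among them the myocyte enhancer factor 2 (MEF2) family of transcription factors.

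The 300 domains were a small part of the stitched muscle domains and held a large part of their signal. They were 1.93% of the domains, and they held 3319 of the 28554 stitched peaks (11.6%, 95% interval 11.3 to 12), 18.2% of the bases under peaks, and 19.6% of the summed AUC. The last of these shares was set by the rule and is given as a description. A domain held 1 to 112 peaks with a median of 9, was 2126 to 284108 bp long with a median of 37346 bp, and had a summed AUC of 10435 to 200271 with a median of 15109. Peaks covered 28.1% of a domain at the median, and the mean gap between neighboring peaks of a domain had a median of 2907 bp over the 294 domains of at least 2 peaks. Outside the 300, the median domain was a single peak of 779 bp.

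**Figure D1:**
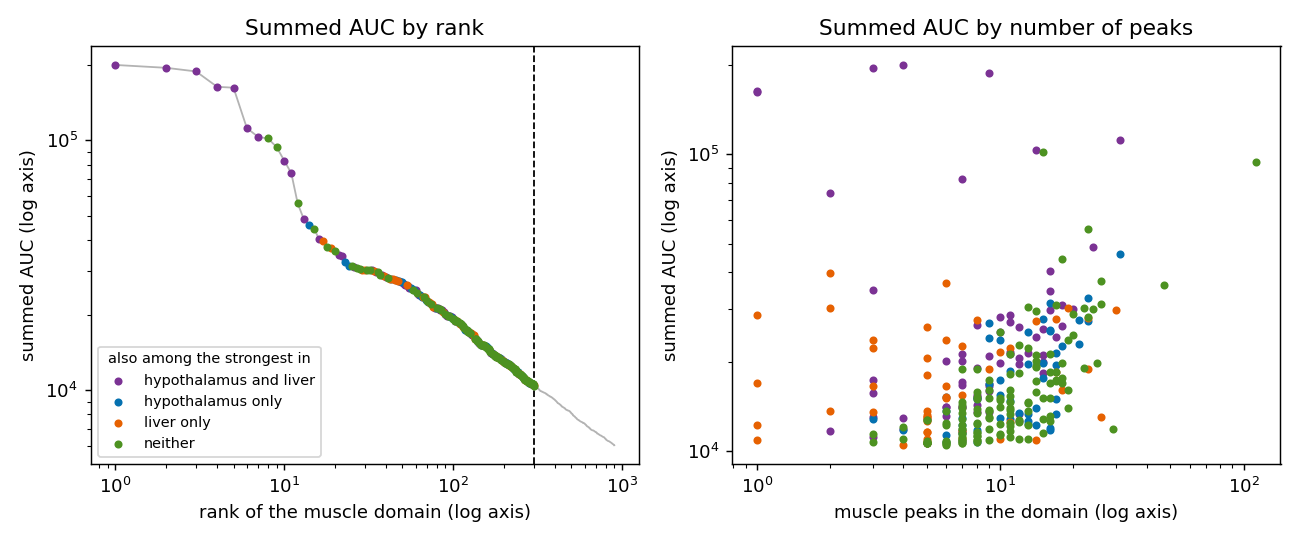
Summed AUC of muscle domains against their rank (left, the dashed line marks the limit of 300 and the gray line goes on below it) and against their number of muscle peaks (right), all axes on a log scale. Points are the 300 domains, colored by whether they overlap the 300 strongest domains of both other tissues, of 1 of them, or of neither. The sums fall steeply over the first ranks, and the domains of largest sum include domains of 1 peak and the domain of 112 peaks.

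The sum passed the limit without a break. The domains ranked 298, 299, and 300 had a summed AUC of 10546, 10465, and 10435, and those ranked 301, 302, and 303 had 10432, 10413, and 10411. The last domain kept was chr16:36757878-36766251 with 6 peaks, and the first left out was chr23:16766587-16784596 with 5 peaks. The 5 strongest domains held 13.8% of the summed AUC of the 300, and the 10 strongest held 21.3%.

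Peaks of the 300 domains were longer than other muscle peaks. Their median length was 738 bp, against 503 bp in the other domains, and their median summit −log10 p was 5.17, against 5.16. Length adds to AUC, so it was not independent of the rule. Peaks over 5000 bp numbered 27 in 20 of the 300 domains, and 1 in all other domains. Of these 27 long peaks, 24 overlapped a hypothalamus peak, 18 overlapped a liver peak, and 3 overlapped neither. Over all stitched muscle peaks these shares were 61.0%, 31.0%, and 37.4%, and a long peak has more room for an overlap.

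Domains reached their sum by different routes. In 58 domains the strongest peak held at least 50% of the summed AUC, and in 19 domains it held at least 80%. There were 6 domains of 1 peak and 22 domains of more than 20 peaks. At the median domain the strongest peak held 31.8%.

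The 5 domains with the largest sum were built from very large peaks that were also present in hypothalamus and liver. The strongest was chr21:32902242-32952336, with 4 peaks and a summed AUC of 200271, of which 83.3% came from a single peak of 33433 bp. That peak had an AUC of 166783 in muscle, and the strongest peak over it had an AUC of 107895 in hypothalamus and 186135 in liver. The domain ranked 3, chr21:32983915-33029131, lay next to it on the chromosome and had 9 peaks, all 9 of which overlapped a liver peak. Their summed AUC was 188639, and 7 of the 9 overlapped a hypothalamus peak.

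The domain ranked 2 was chr27:6216815-6226226, with 3 peaks that covered 97.6% of its 9412 bp and a summed AUC of 195019. All 3 peaks overlapped both other lists. It held copies 1 and 2 of the microRNA gene MIR2887 in the authors' annotation, which also places MIR2887 copy 1 in the domain ranked 4. The domains ranked 1, 2, and 3 were the highest ranked in muscle that also belonged to the 300 strongest of both other tissues. The best-ranked liver domains that touched them ranked 1, 4, and 2, and the best-ranked hypothalamus domains 18, 2, and 9.

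The domain of a single peak with the largest sum ranked 4, chr2:121566471-121576313. Its peak was 9843 bp long with an AUC of 163744 and a summit −log10 p of 29.0. A hypothalamus peak of AUC 166945 and a liver peak of AUC 153077 covered nearly the same bases. The domain ranked 5, chr6:5432945-5462105, was also a single peak, of 29161 bp and an AUC of 162399, and liver held a peak of AUC 176453 there. The aligner kept up to 10 placements of a read, and these 5 domains were not checked for repeated sequence here.

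Ranks 6 to 10 were more varied. The domain ranked 6, chr29:43596957-43683619, had 31 peaks and a summed AUC of 111904. It overlapped FRMD8, a gene for a membrane-associated protein, and 24 of its peaks overlapped hypothalamus, 13 overlapped liver, and 6 overlapped neither. The domain ranked 7, chr21:2031237-2091736, had 14 peaks and a summed AUC of 103163. The best-ranked liver and hypothalamus domains that touched it ranked 6 and 53. The domain ranked 10, chr6:5779103-5800692, had 7 peaks and a summed AUC of 82845, and all 7 overlapped liver. It overlapped PDE5A, which encodes an enzyme that breaks down cyclic GMP.

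The domain ranked 8 stood far higher in the muscle list than any domain of the other lists that touched it. This domain, chr4:92782758-92847288, had 15 peaks and a summed AUC of 101721. Peaks covered 78.7% of its 64531 bp, among them a peak of 20826 bp and another of 15376 bp. Its summed AUC was 32082 in hypothalamus and 790 in liver. The best-ranked domains of those lists that touched it ranked 2340 and 3264, and such a domain may hold only part of the peaks summed here. It held the start of ATP6V1F, a subunit of the proton pump of lysosomes, and lay between CALU and TNPO3. In the gene order of a Tharparkar cattle assembly 7 named protein-coding genes lie between those 2, among them FLNC, which encodes the muscle filamin that cross-links actin at the Z-disc.

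The domain with most peaks was also the longest and ranked 9. This domain, chr2:18058897-18343004, had 112 peaks over 284108 bp and a summed AUC of 93991. It lay between CCDC141 and PLEKHA3, and in the Tharparkar gene order the only protein-coding gene between those 2 is TTN, which encodes titin, the giant spring protein of the sarcomere. Of its peaks, 109 overlapped neither other tissue, 3 overlapped a hypothalamus peak, and none of the 112 overlapped a liver peak.

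The peaks of the TTN interval were many and mostly weak. Their length ran from 221 to 6967 bp with a median of 642 bp, and the gaps between them had a median of 747 bp. Their AUC ran from 203 to 11971 with a median of 364, and their summit −log10 p had a median of 3.89 and a highest value of 8.45. The signal gathered at both ends. Cut into 5 equal parts, the interval held 30 peaks and 25% of the summed AUC in its first part, 29 peaks and 41.5% in its last, and 7.29% to 18.6% in each of the 3 between. The strongest peak, chr2:18337070-18343004, closed the domain.

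**Figure D2:**
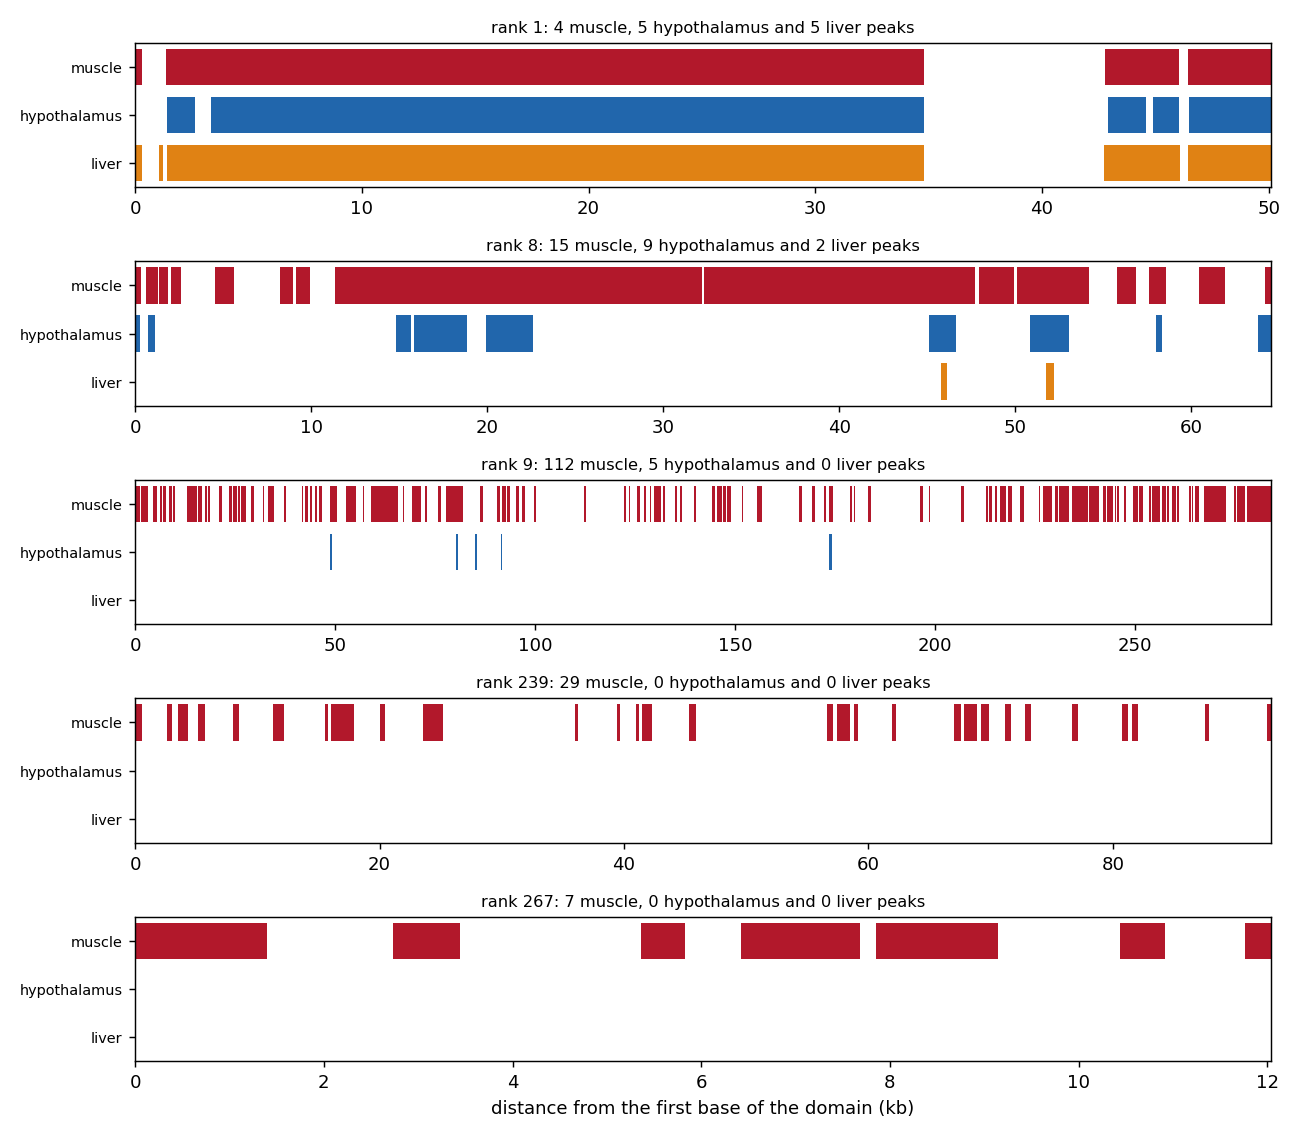
Peaks of muscle (red), hypothalamus (blue), and liver (orange) along 5 domains, by distance from the first base of the domain in kb. The domain ranked 1 is filled in all 3 tissues, that ranked 8 is far more filled in muscle, that ranked 9 holds 112 muscle peaks beside 5 hypothalamus peaks and no liver peak, and those ranked 239 and 267 hold muscle peaks only.

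There were 2 domains with no peak shared with another tissue (0.667%, 95% interval 0.183 to 2.4), where the share was 27.2% among all stitched muscle domains, most of which are 1 peak, and 19.1% among the other domains of 2 or more peaks. The domain ranked 239, chr2:44477594-44570516, had 29 peaks over 92923 bp and a summed AUC of 11828. Its peaks were low, with an AUC of 202 to 1108 and a summit −log10 p of 3.25 to 5.54. The domain ranked 267, chr12:85401886-85413922, was short and denser. It had 7 peaks over 12037 bp that covered 48.8% of it, with an AUC of 211 to 3709 and a highest summit −log10 p of 10.1, and no gene of the annotation at hand lay in it.

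With the TTN interval counted, peaks of the 300 domains were shared with each other tissue slightly less often than muscle peaks in general. Of the 3319 peaks, 1929 overlapped a hypothalamus peak (58.1%, 95% interval 56.4 to 59.8), where 61.0% of all stitched muscle peaks did. A liver peak was overlapped by 959 (28.9%, 95% interval 27.4 to 30.5), where the background was 31.0%. Peaks in neither list, here called muscle-only, numbered 1274 (38.4%, 95% interval 36.7 to 40.1), where the background was 37.4%. Peaks shared with both numbered 843 (25.4%), where the background was 29.5%. The lists differ in length, with 78528 peaks in hypothalamus, 40104 in muscle, and 22291 in liver, and with the hypothalamus list held to its strongest 22291 peaks, an alternative added after seeing the data, the share with hypothalamus was 38.1% in the 300 domains and 45.4% over all stitched peaks. Without the TTN interval, also an alternative added after seeing the data, 60.1% (58.3 to 61.7) overlapped hypothalamus and 29.9% (28.3 to 31.5) liver. Muscle-only peaks were then 36.3% (34.7 to 38), and each of these intervals holds its background. Peaks shared with both were then 26.3% (24.8 to 27.8), and that interval stays below its background of 29.5%. The side of the background changed with the setting. With the first megabase kept too, 38.5% overlapped liver against 32.6% of all stitched peaks and 33.5% were muscle-only against 36.6%, and with summits of −log10 p 5 or more in all lists 29.7% overlapped liver against 24.9%. Ranked by highest summit, 81.1% overlapped hypothalamus and 58.2% liver, where the backgrounds were 61.0% and 31.0%.

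Domains at either extreme were fewer than elsewhere. All peaks were shared with another tissue in 83 domains (27.7%), where the share was 58.0% among all stitched domains and 39% among the other domains of 2 or more peaks. At least 50% of the peaks were muscle-only in 80 domains (26.7%), a count given without a share over all stitched domains. The muscle-only share of a domain had a median of 20.7% and an upper quartile of 50%. Among the other domains of 2 or more peaks these were 33.3% and 66.7%. A peak that overlapped hypothalamus was present in 298 domains, where 71.9% of all stitched domains and 80.1% of the other domains of 2 or more peaks held 1. A peak that overlapped liver was present in 260, where those shares were 44.3% and 49.6%. Domains of more peaks have more chances to hold an overlap, and these shares are not matched on the number of peaks.

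The share of muscle-only peaks was higher in domains of more peaks. It was 11.6% (95% interval 7.87 to 16.8) in the 54 domains of 1 to 5 peaks, 28.9% (26 to 32) in the 115 domains of 6 to 10, 38.4% (36 to 40.8) in the 109 domains of 11 to 20, and 59.4% (55.6 to 63.1) in the 22 domains of 21 or more. Without the TTN interval the last share was 51.6% (47.4 to 55.7). The highest summit of a domain had a median −log10 p of 12.1 in the domains of 1 to 5 peaks and 9.81 to 9.98 in the other 3 groups, and its part in the trend was not tested. A domain of few peaks passes the limit on summed AUC only through strong peaks. The order is therefore not independent of the rule and is given as a description. Of the domains of 21 or more peaks, none of the 22 had all its peaks shared, and 39 of the 54 domains of 1 to 5 peaks did. Among ranks 1 to 10, 63.5% of 197 peaks were muscle-only, but 18.8% of 85 peaks were without the TTN interval.

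Within a domain the strongest peak was more often shared than the others. It overlapped hypothalamus in 259 of the 300 domains (86.3%) and liver in 214 (71.3%), and it was muscle-only in 39 (13%, 95% interval 9.66 to 17.3). Of the other 3019 peaks of the domains, 40.9% (39.2 to 42.7) were muscle-only and 24.7% overlapped liver. The same order held in the other domains of 2 or more peaks, where 30.2% of the strongest peaks and 46.3% of the rest were muscle-only. The strongest peak was picked by AUC, to which length adds, and a long peak has more room for an overlap. In both sets the order is therefore given as a description. Muscle-only peaks held less of the signal than of the number. They held 17.5% of the summed AUC of the 300 domains, and peaks shared with both tissues held 61.2%. Their median length was 591 bp and their median AUC 489, against 1262 bp and 2707 for the peaks shared with both.

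**Figure D3:**
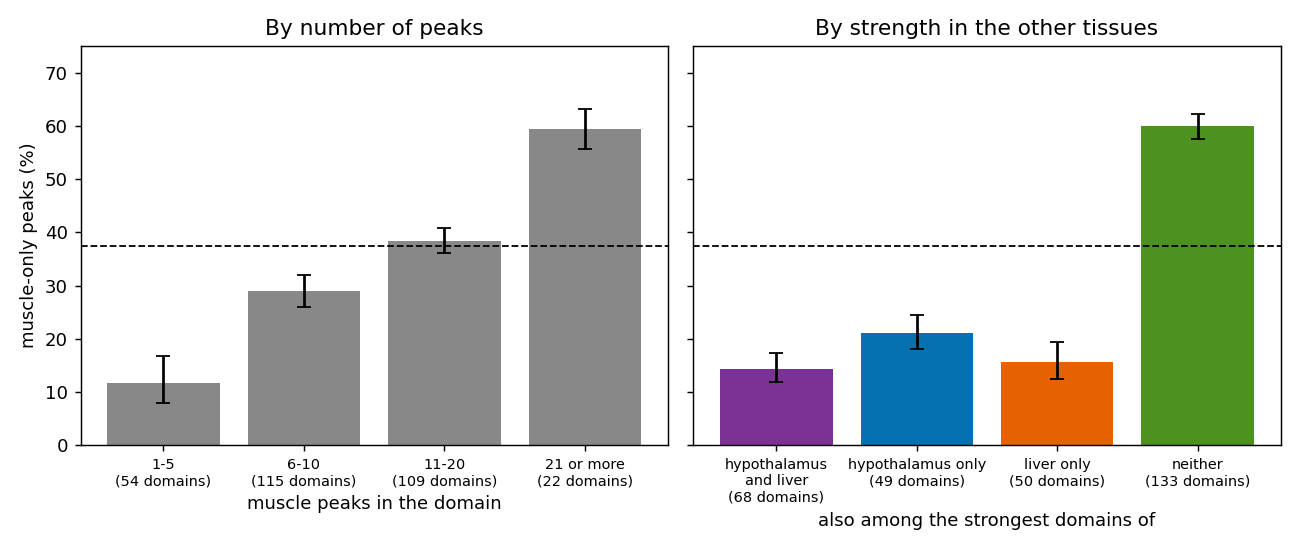
Share of muscle-only peaks, in percent, by the number of peaks in a domain (left) and by whether the domain overlaps the 300 strongest domains of the other tissues (right), with Wilson 95% intervals as error bars and the 37.4% of all stitched muscle peaks as the dashed line. The share goes from 11.6% in domains of 1 to 5 peaks to 59.4% in those of 21 or more, an order not independent of the limit on summed AUC. It is 59.9% in domains that overlap no strong domain of the other tissues, an order that follows in part from how these groups were made.

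To see whether the domains were also strong elsewhere, the same rule was run on the other lists. Of the 300 muscle domains, 117 (39%, 95% interval 33.7 to 44.6) overlapped the 300 strongest hypothalamus domains, where 3.89% of all stitched muscle domains did. The strongest liver domains were overlapped by 118 (39.3%, 95% interval 34 to 45), where the background was 1.94%. Seen from the other side, 112 of the 300 hypothalamus domains (37.3%) and 122 of the 300 liver domains (40.7%) overlapped a muscle domain of the 300. Long domains overlap more readily than short ones, and the median domain outside the 300 was far shorter, so these backgrounds are not matched on length.

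The domains fell into 4 groups by this overlap. In both other lists there were 68 domains, in hypothalamus but not liver 49, in liver but not hypothalamus 50, and in neither 133. Muscle-only peaks made up 14.4%, 21.2%, 15.6%, and 59.9% of the peaks in these groups, in that order, and 57.2% in the last group without the TTN interval. Overlap with a domain of another tissue nearly always brings peaks of that tissue with it, so this order follows in part from how the groups were made and is a description. The domains that overlapped strong liver but not strong hypothalamus domains were the shortest, with a median of 21301 bp and 5.5 peaks, and their strongest peak held a median of 48.3% of the sum. Those that overlapped strong hypothalamus but not strong liver domains had a median of 47120 bp and 13 peaks. Any overlap counted, so the muscle interval itself could be weak in the other tissue, as in the domain ranked 172, with a hypothalamus AUC of 376 and 13 of its 14 peaks muscle-only.

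The 300 intervals held a larger part of the liver signal than of the hypothalamus signal. Of the liver peaks under the same limits on position, 1092 of 10465 (10.4%) lay in them with 28.2% of the liver AUC, and of the hypothalamus peaks 2235 of 68177 (3.28%) with 6.86% of the AUC. The 5 domains of largest sum in muscle each had a liver sum of 153077 to 223910, where the 300 strongest liver domains had a median of 3569. In hypothalamus these values were 103832 to 229840 and 66895. The shares without these 5 domains, which were not checked for repeated sequence, were not computed. The best-ranked liver domain that touched the interval ranked above the muscle domain in 79 cases, and the best-ranked hypothalamus domain did in 59. Such a domain can hold part of the interval or reach past it. The ranks are not on a common scale, since they come from 7880 liver, 15556 muscle, and 30174 hypothalamus domains. No liver peak at all was present in 39 of the muscle domains.

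**Figure D4:**
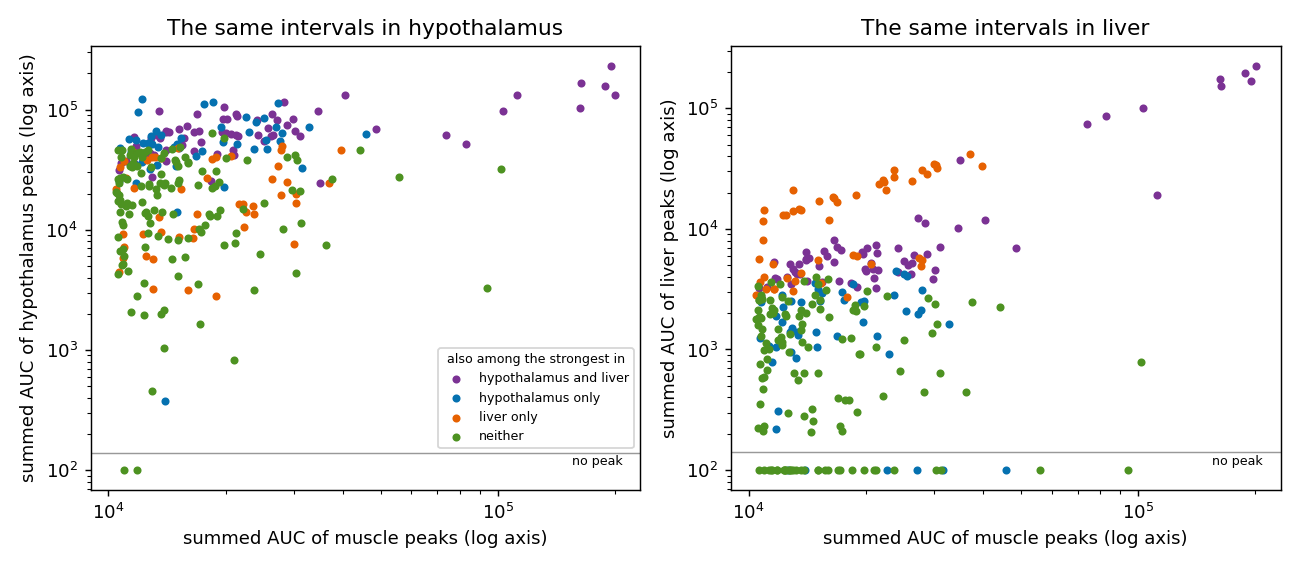
Summed AUC of the hypothalamus peaks (left) and of the liver peaks (right) that touch each of the 300 muscle domains, against the summed AUC of the muscle peaks, on log axes, with domains that hold no peak of that tissue below the gray line. Values are not scaled between lists. No hypothalamus peak was present in 2 domains and no liver peak in 39, and the 5 domains of largest sum in muscle are high in both.

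Domains were dense on a few short chromosomes. Chromosomes 18 and 19 held 31 each and chromosome 25 held 16, which is 4.78, 4.97, and 3.87 domains per 10 Mb against 1.22 over all autosomes. These 3 chromosomes, singled out as the densest, held 26% of the 300 domains, 11.8% of all stitched domains, and 14.1% of all stitched peaks. Chromosome 24 held none of the 300 and chromosome 9 held 1. Another of the 300 lay within 100000 bp of 70 domains, and 40 domains (13.3%) lay in the last 5 Mb of a chromosome, as did 8.62% of all stitched domains.

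**Figure D5:**
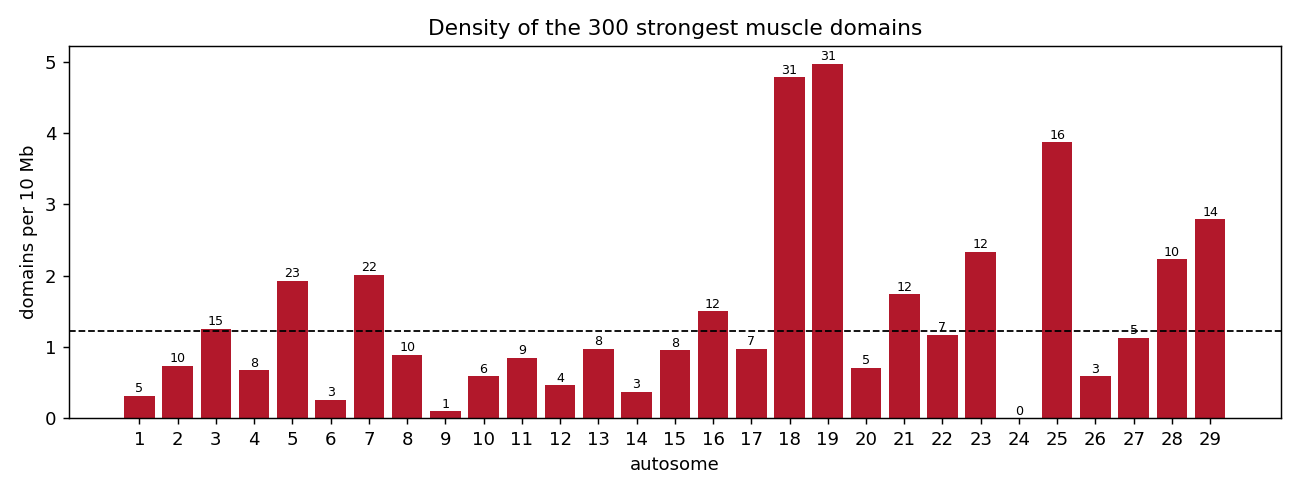
Number of the 300 muscle domains per 10 Mb of each autosome, with the count of domains above each bar and the value over all autosomes, 1.22, as the dashed line. Chromosomes 18, 19, and 25 stand highest and chromosome 24 has no domain.

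Gene positions were taken from the authors' peak annotation, which was given in part. It places 2299 genes, 1837 of them on chromosomes 1 to 5, and only genes nearest to a listed peak, so a domain with no gene named here may still hold one. On chromosomes 1 to 5, 37 of 61 domains (60.7%, 95% interval 48.1 to 71.9) held a gene start, where 31.5% of all stitched domains there did. Among the other domains of 2 or more peaks the share was 36.5%. Longer domains have more room for a gene start, and length was not matched.

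Of the genes on the 6 muscle lists (sarcomere, calcium and excitation, neuromuscular junction, myogenic regulators, energy metabolism, and membrane and costamere), 11 of 146 had a position, and 5 of those 11 had their start in a domain, where 4.94% of the 2266 genes positioned on autosomes did. Ranked by highest summit, 0 of the 11 did. They were 1 of 3 myogenic regulators, both positioned genes of energy metabolism, and 2 of 3 genes of the membrane and costamere. None of the 3 positioned genes of the sarcomere and neuromuscular junction lists did, and no gene of the calcium and excitation list had a position.

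MEF2D, a transcription factor of the MEF2 family, had its start in the domain ranked 37, chr3:14310686-14368031. The domain held 20 peaks with a summed AUC of 28820, of which 10 were muscle-only, 10 overlapped hypothalamus, and 3 overlapped liver. Peaks of all 3 tissues lay within 1000 bp of the gene start.

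PDK4, the kinase that holds back pyruvate oxidation in fasting and exercise, had its start in the domain ranked 58, chr4:12877965-12911483. It held 10 peaks with a summed AUC of 25128, 4 of them muscle-only. GAPDH, the glycolytic enzyme, had its start in the domain ranked 203, chr5:103847587-103878141, where 9 of 10 peaks overlapped hypothalamus and 1 was muscle-only.

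DES encodes desmin, the intermediate filament that ties myofibrils together, and lay in the domain ranked 61, chr2:107320082-107372934. This domain also held the starts of SPEG, a kinase of striated muscle, and DNPEP, an aminopeptidase. Of its 20 peaks 17 were muscle-only, 3 overlapped hypothalamus, and 1 overlapped liver, and the summed AUC was 24509 in muscle, 6290 in hypothalamus, and 657 in liver. LMNA encodes the nuclear lamins A and C, and the domain at its start, ranked 226 at chr3:14640413-14695476, was the opposite case, since all 13 of its peaks overlapped hypothalamus and 5 overlapped liver.

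The other positioned muscle genes were looked up for peaks at their start. Positions exist only for genes nearest to a listed peak, so a peak at the start is in part built in. The genes TPM3, KLHL41, CHRNA1, and MYOG, which encode a tropomyosin, a sarcomere protein, an acetylcholine receptor subunit, and myogenin, each had a muscle peak within 1000 bp of their start and no peak of hypothalamus or liver there. SGCA, a sarcoglycan of the muscle membrane, had a peak of muscle and of hypothalamus at its start, and MSTN, the last of these 6 genes, had none. By contrast, the genes with a start in a domain all had a hypothalamus peak there. MEF2D, PDK4, GAPDH, and LMNA had a liver peak too, and DES did not. None of the 6 other genes lay in a domain of the 300. Of the lists for other cells that muscle tissue can hold, ERG of the endothelial list was the only positioned gene, and it had no peak at its start in any tissue. The lists of adipocyte, fibroblast, smooth muscle, immune, neuron and glia, and hepatocyte markers held no positioned gene, so the part of other cells in the domains was not tested. Of the HOX clusters 3 genes had a position, and 0 lay in a domain.

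In all, 75 of the 300 domains held the start of a named gene of this partial annotation, a count given without a share over all stitched domains. Those given next were picked after their values were seen and stand for no group. FOS and JUNB, which encode subunits of the AP-1 transcription factor, lay in the domains ranked 56 and 88, where 10 of 16 and 10 of 12 peaks overlapped hypothalamus. NR4A1, a nuclear receptor, lay in the domain ranked 15, with 17 of 18, and DUSP1, a phosphatase of MAP kinases, in that ranked 106, with 5 of 7. PNPLA2, the lipase that starts the breakdown of stored fat, lay in the domain ranked 63, with 16 of 17. Over all stitched muscle peaks that share was 61.0%, so 10 of 16 lies near it. In the domain ranked 139, which held the start of OGDH, an enzyme of the citric acid cycle, 8 of the 14 peaks were muscle-only. BIN1, which shapes the T-tubule membranes of muscle, lay in the domain ranked 71, where all 18 peaks overlapped hypothalamus and 0 overlapped liver.

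At least 80% of the peaks were muscle-only in 23 domains, which had 7 to 112 peaks. No share over all stitched domains is given for this count, so it describes the 300 only. Besides the TTN and DES intervals and the domains ranked 239 and 267, named after its values were seen, the domain chr1:144935907-144995370, ranked 102, had 19 muscle-only peaks of 22. It lay between ITGB2 and POFUT2, and in the Tharparkar gene order ADARB1, which encodes an RNA-editing enzyme, and SLX9 lie between those. Its summed AUC was 18979 in muscle, 12944 in hypothalamus, and 300 in liver.

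Peaks on the study's list of MEF2 targets, of which the copy used here holds 659 muscle peaks, had a share in the domains near that elsewhere. Of the 3319 peaks 85 were on the list (2.56%), where 2.28% of all stitched muscle peaks were, and of the 1274 muscle-only peaks 82 were (6.44%), where 5.98% of all muscle-only stitched peaks were. The study derived that list from these samples by a motif search that started from muscle-specific peaks, and 639 of its 651 stitched peaks are muscle-only, so it is no independent evidence. A peak of the list was present in 60 of the 300 domains (20%), where 3.83% of all stitched domains and 7.35% of the other domains of 2 or more peaks held 1, again not matched on the number of peaks. The TTN interval held 4 such peaks among its 112.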

How the data were processed

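ATAC-seq libraries of 3 tissues from 3 heifers were aligned by the authors to ARS-UCD1.2 with HISAT2, which kept several placements of a read, and peaks were called with Genrich 0.6.1. Replicates were analyzed separately and combined by Fisher's method. The deposited lists give, per peak, a signal (AUC), a summit −log10 p not corrected for multiple tests, a score, and other columns of positions. The depth of single libraries was not analyzed here, and limits which weak peaks were called.

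Lists were read as deposited, starts were printed from 1, and overlaps of at least 1 bp were found with bedtools 2.31.1, python 3.11.15, pandas 2.3.3, and scipy 1.17.1. On simulated lists of 1160 domains, all 300 planted as strongest were found. No other per-sample column was used.

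The regions described are the 10 of largest sum, 3 on each side of the limit, the domain of most peaks, the longest, the largest of 1 peak, those with no shared peak, and the 3 highest ranked that are strong in all tissues. The genes are those of fixed lists with a position, those that share a domain with one, and those with a start in those regions. Also named are genes that overlap or flank those regions, and listed genes between the flanking genes in the Tharparkar gene order. Any other is marked as chosen later. Gene positions came from the authors' annotation on ARS-UCD1.2, and gene order from the Tharparkar assembly NIAB-ARS_B.indTharparkar_mat_pri_1.0, in which 1736 symbols were matched. The members and lists were chosen with earlier results of these data known. No sequence is printed. The genes beside the domain ranked 239 are not reported here. Results were recomputed under 10 alternatives, and 2 were added after the data were seen.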

Additional observations from a re-analysis of the deposited data

Results flagged for a closer look

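Muscle domains that the limits on position leave out also reached the sum of the 300th domain, an AUC of 10435. In the first megabase of the autosomes, where 944 peaks formed 180 domains, 31 domains did, with a largest sum of 384811. On the X chromosome, where 985 peaks formed 479 domains, 14 did, with a largest sum of 219953. On sequences not placed on a chromosome, where 9621 peaks formed 1410 domains, 426 did, with a largest sum of 476306. These regions lie outside the comparisons above, and the largest sum of each of these 3 sets was above the 200271 of the strongest domain described here.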

How the results depend on the processing

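No paired analysis was possible because the heifers were merged into 1 list per tissue before deposit, and for the same reason no replicate could be left out and no test was run. Under the alternatives 48 values stayed within the interval of the reported value, or within 1.5 times it where it has none, and 53 moved. The cause was not tested. With a gap of at most 5000 bp, 31.6% of peaks overlapped liver, where 31.0% of all stitched peaks did. Then 2.67% of domains had no shared peak, 30% overlapped the strongest hypothalamus domains, and the median length was 12764 bp. With a gap of at most 25000 bp, 62.9% overlapped hypothalamus, 30.8% liver, and 34.6% neither, where 61.0%, 31.0%, and 37.4% of all stitched peaks did. Then 53.3% and 46.3% of domains overlapped the strongest of hypothalamus and of liver, and the medians were 15 peaks and 90376 bp. Gene starts were counted only on the chromosomes named for them in the results, where 43 of 57 domains (75.4%) held a start. No share over all stitched domains is given for this gap. Ranked by bases covered, 56% of peaks overlapped hypothalamus, where 61.0% of all stitched peaks did.

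Ranking by the highest summit changed most. Then 81.1% of peaks overlapped hypothalamus, 58.2% liver, and 16.9% neither, where 61.0%, 31.0%, and 37.4% of all stitched peaks did. Under this ranking 0 domains lacked a shared peak, 61.3% overlapped the strongest hypothalamus domains, and the medians were 2 peaks and 2665 bp. The domains held 10.1% of the summed AUC, and 0 listed muscle genes had their start in a domain. On the chromosomes where gene starts were counted, 65 of 88 domains (73.9%) held a start. No share over all stitched domains is given for this ranking. With 100 domains kept, 0 lacked a shared peak, 56% overlapped the strongest domains of hypothalamus and 56% those of liver, the median was 14 peaks, the domains held 11.5% of the AUC, and 3 listed genes had their start in a domain. With 1000 kept, 60.3% of peaks overlapped hypothalamus and 30.8% liver, where 61.0% and 31.0% of all stitched peaks did. In that setting 3.1% of domains lacked a shared peak, 20.6% and 23.7% overlapped the strongest of hypothalamus and liver, the medians were 5 peaks and 21745 bp, and the domains held 35% of the AUC.

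With the first megabase kept too, 38.5% of peaks overlapped liver and 33.5% neither, where 32.6% and 36.6% of all stitched peaks did, and 45% of domains overlapped the strongest liver domains. Where all lists were limited to summits of −log10 p 5 or more, 68.7% overlapped hypothalamus and 28.6% neither, where 68.2% and 31.2% of all stitched peaks did, 29.7% overlapped liver, where 24.9% did, and the medians were 5 peaks and 20964 bp. Where the overlap had to cover 50% of the muscle peak, 51.2% overlapped hypothalamus, 17.8% liver, and 44.9% neither, where 58.7%, 22.1%, and 39.8% of all stitched peaks did. With 200 bp around each summit, 55.5% overlapped hypothalamus and 40.9% neither, where 60.2% and 38.3% of all stitched peaks did. Of the alternatives chosen after seeing the data, leaving out the TTN interval gave 60.1% with hypothalamus, 29.9% with liver, and 36.3% with neither. Over all stitched peaks these shares were 61.0%, 31.0%, and 37.4%. A hypothalamus list as long as the liver list gave 38.1% with hypothalamus and 53.8% with neither, where 45.4% and 50.9% of all stitched peaks did. Depth per library is unknown from the lists, and weak peaks near the smallest AUC of 200.0 may be called or missed with it.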

Other observations

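In 5 of the 300 domains the peaks that overlapped liver were more than 2 times as many as those that overlapped hypothalamus. No share over all stitched domains is given for this count, so it describes the 300 only. These 5 domains were noticed after their values were seen, and they were not checked for repeated sequence. The domain chr27:6285882-6343934, ranked 198, had 26 muscle peaks, of which 24 overlapped liver and 6 overlapped hypothalamus, and it held the start of DEFB13, a beta-defensin gene of the innate immune system. The best-ranked domains that touched it ranked 23 in liver and 13949 in hypothalamus. The domain chr18:57252799-57309898, ranked 105, had 23 muscle peaks, of which 22 overlapped liver and 3 overlapped hypothalamus. Its highest summit −log10 p was 5.03, the lowest of the 300 domains, where the median was 10.1. The others were chr4:105568946-105630339, ranked 34 with 26 of 30 peaks shared with liver, chr19:57050253-57086002, ranked 134 with 15 of 18, and chr20:55673204-55696253, ranked 199 with 5 of 5. Their highest summits were low too, at 7.41, 6.61, and 5.86 in that order, and that of the domain ranked 198 was 5.40.

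A further domain that was nearly muscle-only, also seen after its values were known, was chr28:9324218-9421156, ranked 20. It had 47 peaks over 96939 bp and a summed AUC of 36210, and 46 of its peaks were muscle-only. Of the 47, 4 were on the study's list of MEF2 targets. That list holds 2.28% of all stitched muscle peaks and 5.98% of the muscle-only ones. It started from muscle-specific peaks of these samples, so it is no independent evidence. No gene of the annotation at hand lay in this domain.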
